A study of Mus musculus with 99 samples.

Results

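The quadriceps of sedentary mice was compared between 18 and 10 months of age. The comparison used every quadriceps library whose label gives a sedentary mouse of either age and that has a column in the count table. These were 9 libraries at 18 months and 10 at 10 months, or 19 of the 97 libraries of the series that were analysed. A further sedentary 18-month library that the labels list was not analysed here. All mice were male C57BL/6 animals of wild-type genotype, perfused before the tissues were taken, and neither group carried a transgene, a deletion or a drug treatment in its labels. Polyadenylated RNA was sequenced, so each value counts reads over a gene in a whole muscle, where fewer cells of a type and less RNA per cell cannot be told apart. The 12 quadriceps libraries of exercised 18-month mice entered the fit to share its estimate of spread, and are not compared here. The labels do not say whether each library is a separate animal, so the p-values measure the spread between these libraries. Library numbers starting with 4 to 9 occurred only at 18 months and numbers starting with 1 to 3 only at 10 months, so a cage or litter behind the number cannot be told apart from age.

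The quadriceps is a thigh muscle that extends the knee, and in mice it consists mainly of fast, glycolytic fibres with few slow ones. Between middle age and early old age, muscle is known for a slow loss of mass and of insulin sensitivity, for fat between its fibres and for changes at the nerve contact, which are larger at ages beyond those sampled here. Muscle takes up glucose through a transporter held in vesicles until insulin or contraction releases it, stores glucose as glycogen, and releases peptide hormones, called myokines, that act on liver and fat.

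The markers bore out skeletal muscle, but they do not tell the quadriceps from another leg muscle. The 7 skeletal muscle fibre markers together held 125386 to 168530 CPM (counts scaled to library size with the trimmed mean of M-values) at 18 months, against 106962 to 165378 CPM at 10 months. The fast myosin heavy chain Myh4 alone had 52631 ± 4670 CPM at 18 months and 51784 ± 4776 CPM at 10 months (SD, n = 9 and 10). Library totals ran from 29.1 to 44.5 M counts (M, mega) at 18 months and from 32.9 to 40.3 M counts at 10 months.

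Library 3.1, at 10 months, stood apart. Its expression deviated from the mean of all 31 quadriceps libraries in the fit by a root mean square of 0.772 on the log2 scale. The other 18 sedentary libraries had 0.230 to 0.341. It was the highest or the lowest of all 19 libraries for 8892 genes, or 60.1% of those tested. Its atrophy genes were high, with Trim63 at 2155 CPM against 149 to 227 CPM in the other 9 libraries of 10 months and Fbxo32 at 4362 against 309 to 506 CPM. Its collagen and matrix genes summed to 600 CPM, against 1491 to 1815 CPM in those 9. Some lipid synthesis genes were low, with Scd1, a fatty acid desaturase, at 10.42 CPM against 140 to 382 CPM, whereas the summed lipid synthesis list, at 1734 CPM, lay within the 1422 to 1868 CPM of the others. Results are therefore given with and without it where the choice matters. Library 5.2, at 18 months, and library 3.2, at 10 months, had mitochondrial shares of 19.2% and 18.2% of counts, the highest in their groups. Library 6.1, at 18 months, held 1133 CPM of red cell markers, against 162 to 303 CPM in the other 18-month libraries.

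Of 14790 genes tested, 52 differed between the ages at an adjusted p under 0.05 in edgeR's quasi-likelihood test, which is 0.352% of genes. Such genes are referred to as called. At 18 months 36 genes were higher (0.243% of those tested) and 16 were lower (0.108%). Differences were mostly small. Only 14 of the 52 reached a log2 fold change of 1 in either direction and 17 stayed under 0.5, and the median over all tested genes was -0.01. In 9 of the 52 every 18-month library lay outside the range of the 10-month libraries on the same side, a pattern that 11 of all tested genes (0.0744%) had. Of the 52, 9 carry a predicted or unnamed symbol and are only counted here. The other 43 comprise 30 rises and 13 falls, and 41 of them are described below. At an unadjusted p under 0.05 there were 875 genes higher at 18 months (5.92% of those tested) and 927 lower (6.27%).

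**Figure D1:**
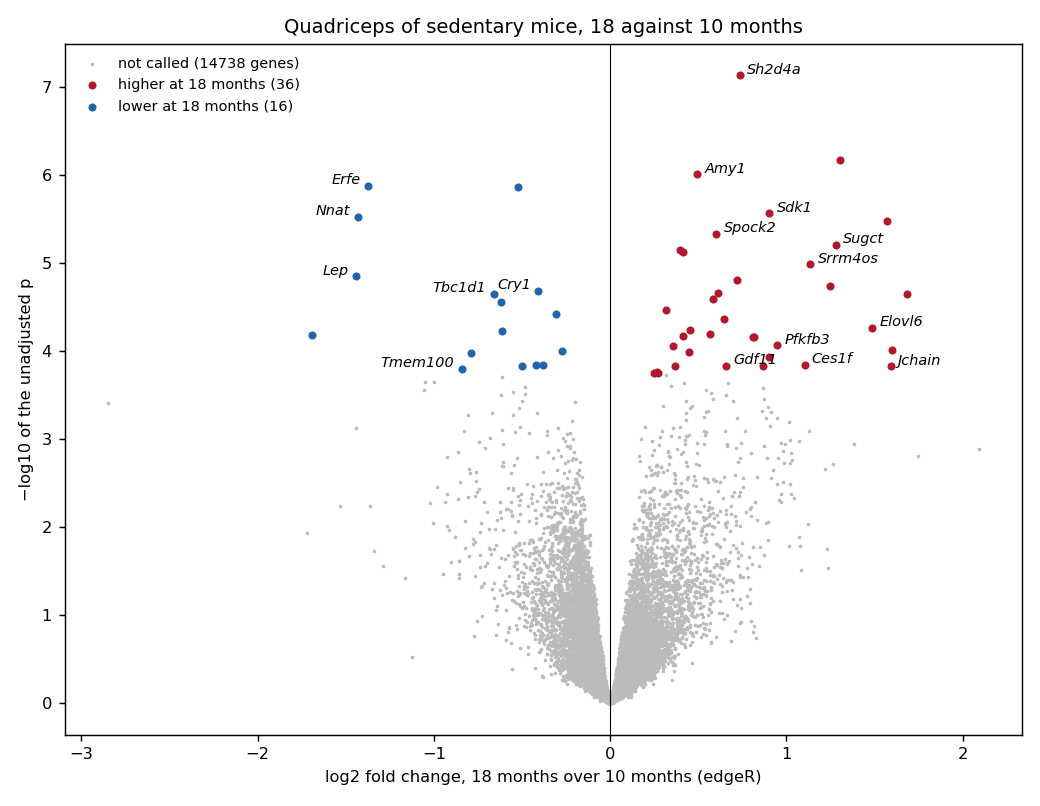
Each point is 1 of the 14790 genes tested in quadriceps, with the log2 fold change of 18 months over 10 months on the x axis and the −log10 of its unadjusted p on the y axis. The 36 called rises (red) and 16 called falls (blue) are few beside the grey genes, and the coloured points without a name include the 9 predicted symbols.

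Sh2d4a (chr8:68276567-68347699, GRCm38), which codes for an adaptor protein with an SH2 domain, had 4.52 CPM in the lowest, 5.77 in the median and 7.497 in the highest 18-month library, against 2.62, 3.42 and 4.76 CPM at 10 months. All 9 libraries of 18 months lay above the 10-month median, and the log2 fold change was 0.74 (SE 0.11, adjusted p = 0.00109). Amy1 (chr3:113555710-113606699), which codes for an amylase that cleaves starch and glycogen, had 75.7, 80.2 and 96.8 CPM at 18 months, against 51.7, 57.2 and 70.5 CPM at 10 months. The groups did not overlap, and Amy1 was 0.50 higher on the log2 scale (SE 0.08, adjusted p = 0.00406). Of its exon bases, 32.7% are shared with Rnpc3 on the same strand, and Rnpc3 itself stood at 0.03 on the log2 scale (adjusted p = 0.924). Close copies of the amylase gene exist, so reads may have been divided among them.

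Sdk1 (chr5:141241490-142215586), a cell adhesion molecule of the immunoglobulin superfamily, had 2.34, 3.04 and 4.91 CPM at 18 months and 0.796, 1.71 and 2.75 CPM at 10 months. Its groups touched only through the highest 10-month library, and it rose by 0.90 on the log2 scale (SE 0.16, adjusted p = 0.0062). Spock2 (chr10:60106219-60135198), a secreted matrix proteoglycan, had 9.04, 10.5 and 12.9 CPM at 18 months, against 5.58, 6.94 and 8.56 CPM at 10 months, with no overlap. Its log2 fold change was 0.60 (SE 0.11, adjusted p = 0.00763). Fam13a (chr6:58932090-59024549), a protein with a RhoGAP domain, had 13.02, 14.7 and 18.7 CPM at 18 months and 10.08, 11.5 and 14.0 CPM at 10 months. It rose by 0.40 (SE 0.08, adjusted p = 0.00927) with a small overlap of the groups. Ric3 (chr7:109034312-109083331), a chaperone that helps nicotinic acetylcholine receptors to assemble, had 3.99, 4.35 and 5.15 CPM at 18 months, against 2.34, 3.41 and 3.98 CPM at 10 months. The groups did not overlap, although the nearest libraries differed little, and the log2 fold change was 0.42 (SE 0.08, adjusted p = 0.00927).

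Srrm4os (chr5:116438720-116465487), a transcript on the strand opposite to the neural splicing factor Srrm4, had 2.33, 2.76 and 6.91 CPM at 18 months and 0.859, 1.51 and 3.11 CPM at 10 months. Its highest 18-month value came from library 9.3 and its highest 10-month value from library 3.1, and its log2 fold change was 1.14 (SE 0.22, adjusted p = 0.0118). Mpzl3 (chr9:45055186-45077436), an immunoglobulin-like membrane protein, had 1.37, 1.63 and 2.16 CPM at 18 months, against 0.749, 1.005 and 1.36 CPM at 10 months. The groups did not overlap and the log2 fold change was 0.72 (SE 0.14, adjusted p = 0.0154). Sugct, a mitochondrial enzyme that activates glutarate, stood at a far lower level, with 0.313 ± 0.122 CPM at 18 months and 0.129 ± 0.0422 CPM at 10 months (SD, n = 9 and 10). It rose by 1.28 on the log2 scale (SE 0.24, adjusted p = 0.00918). No 10-month library exceeded 0.205 CPM, so Sugct met the filter's minimum count only through 18-month libraries, sedentary and exercised. Its entry into the test thus depended on the group where it was high. Library 3.1 was the lowest at 10 months for Sh2d4a, Sdk1, Mpzl3 and Sugct, which rose by 0.70, 0.82, 0.68 and 1.21 without it. These 9 rises were called in each of the 19 fits that left out a single library.

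The falls included an imprinted gene, a fat hormone and genes of glucose handling. Nnat (chr2:157560078-157562522), which codes for the imprinted membrane protein neuronatin, had 1.02, 2.46 and 4.13 CPM at 18 months, against 2.37, 7.25 and 11.4 CPM at 10 months. All 9 libraries of 18 months lay below the 10-month median, and the lowest 10-month library was 3.1. Its log2 fold change was -1.43 (SE 0.26, adjusted p = 0.0062), and -1.54 without library 3.1. Among the 19 tested genes of a list of imprinted and growth genes it was the only one called, and the list's median was -0.02. The next members by p, Peg10 and Igf2, had log2 fold changes of 0.53 and 0.19 and were not called (adjusted p = 0.237 and 0.407). Limma voom with quality weights, which called 833 of 14790 genes, called Peg10 higher. H19, Meg3 and Dlk1 were not called either, at -0.17, -0.24 and -0.11.

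Lep (chr6:29060220-29073877), the leptin gene of fat cells, had 0.588, 1.85 and 2.58 CPM at 18 months and 0.773, 4.81 and 8.09 CPM at 10 months. The lowest 10-month value was again that of library 3.1, and without it the 10-month libraries started at 2.37 CPM. The log2 fold change was -1.44 (SE 0.28, adjusted p = 0.015) with all libraries and -1.57 (adjusted p = 0.000712) without 3.1. Of 11 tested adipocyte markers, Lep was the only one called, also by DESeq2. In contrast to Lep, 9 of the 11 had a higher fitted level at 18 months, against 6724 of all 14790 genes. The list median was 0.49, against -0.01 over all genes. At an unadjusted p under 0.05, 6 were higher and 1 lower, against 5.92% and 6.27% of all genes. Limma voom with quality weights, which called 833 of 14790 genes, called 4 of the markers higher and 1 lower (Pck1, Lep, Retn, Adrb3 and Cfd). Cfd, the adipocyte protease adipsin, averaged 120 ± 69.0 CPM at 18 months and 64.9 ± 27.5 CPM at 10 months (log2 fold change 0.89, adjusted p = 0.135), and Retn, the hormone resistin, had 10.296 ± 4.79 and 5.94 ± 2.38 CPM (0.80, adjusted p = 0.129). The summed adipocyte markers ran from 763 to 1320 CPM at 18 months and from 843 to 1136 CPM at 10 months, and all 12 listed markers were found in the table. Lep, Cfd and Retn were a small part of these sums, which also hold Lpl and Fabp4 and do not measure fat cell content.

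**Figure D2:**
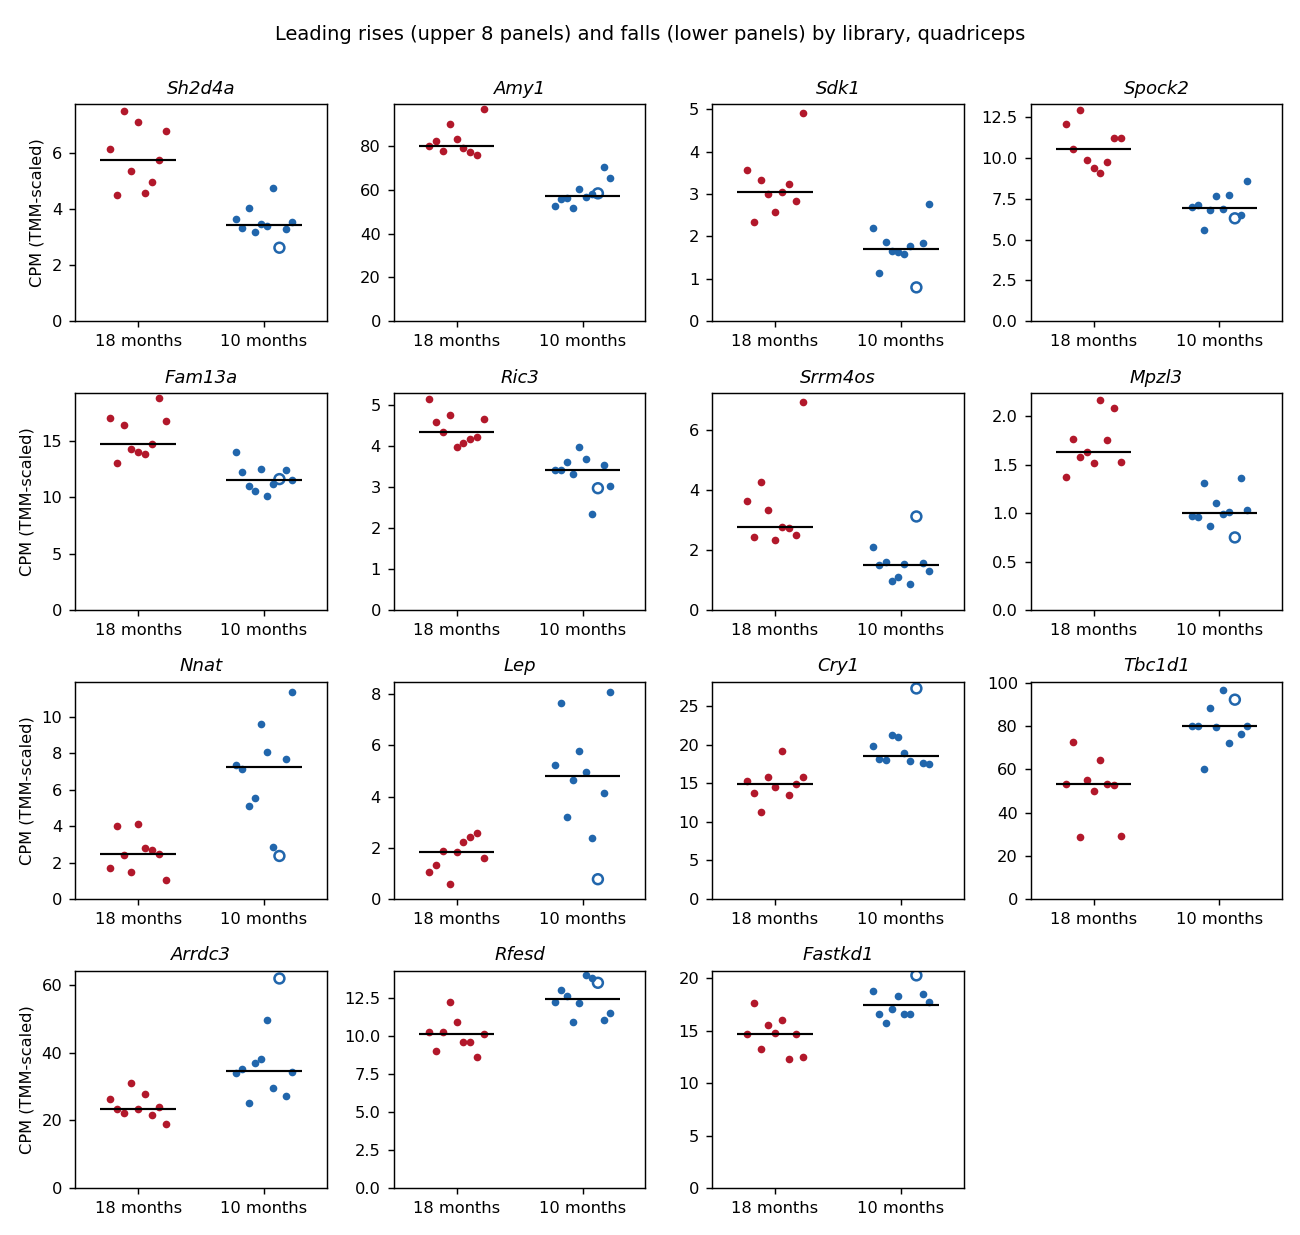
CPM of the 8 called rises (upper panels) and 7 called falls (lower panels) among those of smallest p with a mean of at least 1 CPM, for 9 libraries at 18 months (red, left) and 10 at 10 months (blue, right), with medians as lines. Amy1, Spock2, Ric3 and Mpzl3 do not overlap between ages. The open circle, library 3.1, is the lowest 10-month value of the rises Sh2d4a, Sdk1 and Mpzl3 and of the falls Nnat and Lep. It is the highest 10-month value of the rise Srrm4os and of the falls Cry1, Arrdc3 and Fastkd1.

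Glucose handling held 2 of the leading falls described here. Tbc1d1 (chr5:64156305-64351486), a Rab GTPase activator that holds the glucose transporter of muscle in its vesicles, had 28.6, 53.2 and 72.4 CPM at 18 months, against 60.0, 80.0 and 96.8 CPM at 10 months. All 9 libraries of 18 months fell below the 10-month median, with libraries 6.1 and 9.3 far below the rest, and the log2 fold change was -0.66 (SE 0.13, adjusted p = 0.0167). Arrdc3 (chr13:80883384-80896042), an arrestin-like protein that lowers beta-adrenergic and insulin signalling, had 18.8, 23.5 and 30.995 CPM at 18 months and 25.1, 34.7 and 61.9 CPM at 10 months, the last from library 3.1. It fell by 0.62 on the log2 scale (SE 0.13, adjusted p = 0.0185), and by 0.50 without library 3.1.

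Pfkfb3, the enzyme that makes the main activator of phosphofructokinase and so drives glycolysis, went the other way. It had 238, 423 and 680 CPM at 18 months, against 107, 240 and 345 CPM at 10 months, with 8 of 9 libraries of 18 months above the 10-month median. Its log2 fold change was 0.95 (SE 0.21, adjusted p = 0.0369), and 0.87 without library 3.1, which was the lowest at 10 months. It was called in 10 of the 19 fits that left out a library, with values from 0.85 to 1.04. Stbd1, which tethers glycogen to membranes, had 62.0 ± 5.64 CPM at 18 months and 48.1 ± 10.14 CPM at 10 months (SD, n = 9 and 10). It rose by 0.37 (SE 0.09, adjusted p = 0.0459) and was called in 6 of those 19 fits. In a list of 30 genes of glucose uptake, glycogen and glycolysis control, 1 rose (Pfkfb3) and 2 fell (Tbc1d1 and Arrdc3), and the median was -0.03. The insulin-regulated glucose transporter Slc2a4, the hexokinase Hk2 and the glycogen phosphorylase Pygm were not called, at -0.01, -0.16 and -0.01. Limma voom with quality weights also called Ppp1r3c lower.

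Fatty acid synthesis showed a single call. Elovl6 (chr3:129532355-129638495), the elongase of saturated long-chain fatty acids, had 1.27, 4.27 and 13.03 CPM at 18 months and 0.328, 2.13 and 3.41 CPM at 10 months. The rise was carried by 8 of 9 libraries of 18 months, while library 5.2 lay below the 10-month median, and library 3.1 was the lowest at 10 months. The log2 fold change was 1.49 (SE 0.32, adjusted p = 0.0311), and 1.36 (adjusted p = 0.0218) without 3.1. Leaving out 1.4, 2.2, 3.3, 8.2, 9.2 or 9.3 ended the call, with values from 1.22 to 1.62 over the 19 fits. Its list of 21 lipid synthesis genes had 7 members higher and 2 lower at an unadjusted p under 0.05, with a median of 0.04. Over all genes, 5.92% were higher and 6.27% lower. The next by p were Acaca, the carboxylase that starts fatty acid synthesis, at 0.59 (adjusted p = 0.0744), and the citrate carrier Slc25a1 at 0.87 (adjusted p = 0.0746). DESeq2 called both of these in addition to Elovl6. Fasn, the synthase itself, and Acly, which supplies its acetyl groups, stood at 1.13 and 0.71 without a call by edgeR or DESeq2 (edgeR adjusted p = 0.108 and 0.166). Limma voom with quality weights, which called 833 of 14790 genes, called 5 of the 21 higher and 2 lower. Elovl6, Acaca, Slc25a1, Fasn and Acly were among them. Srebf1, the transcription factor that names the pathway, was at -0.19.

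Summed fat cell markers and lipid synthesis values kept the same order in some libraries and not in others. At 18 months library 5.2 had the lowest adipocyte sum (763 CPM) and also the lowest Elovl6, Acaca and Slc25a1, while library 9.2, with the highest adipocyte sum (1320 CPM), had 7.45 CPM of Elovl6, and library 9.3 had the highest Elovl6 at an adipocyte sum of 973 CPM. Library 6.1 had the second highest adipocyte sum (1236 CPM) and a lipid synthesis sum of 1649 CPM, the third lowest at 18 months. Library 3.1 had the highest adipocyte sum at 10 months (1136 CPM), but the lowest Elovl6 and also the lowest Lep, itself an adipocyte marker. Carboxylesterase Ces1f, which belongs to a cluster of close copies, rose by 1.104 (SE 0.26, adjusted p = 0.0459), and Car5b, a carbonic anhydrase of mitochondria, by 0.90 (SE 0.21, adjusted p = 0.0436). Both were lowest in library 5.2 and highest in library 9.2 within the 18-month group. The part of fat cell content in these values was not tested.

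The clock repressor Cry1 was the only called member of 20 circadian clock genes, which had a median of -0.01. Cry1 (chr10:85131700-85185064) had 11.3, 14.9 and 19.2 CPM at 18 months, against 17.5, 18.6 and 27.3 CPM at 10 months, and 8 of 9 libraries of 18 months lay below the 10-month median. It fell by 0.41 on the log2 scale (SE 0.08, adjusted p = 0.0167), and by 0.34 (adjusted p = 0.0159) without library 3.1, its highest value. Without library 6.1, its lowest value, Cry1 was no longer called. The heme-regulated repressor Nr1d1 and the output factor Dbp had log2 fold changes of 0.42 (adjusted p = 0.118) and 0.95 (adjusted p = 0.135) and were not called. DESeq2 called Cry1 alone. Limma voom with quality weights, which called 833 of 14790 genes, called 4 of the 20 higher and 2 lower, with Nr1d1 and Dbp among them. Arntl, Per2 and Clock stood at -0.06, -0.27 and 0.08. The labels give no time of day for the tissue collection.

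Promoter windows from RefSeq (GRCm38.p6, 250 bases before to 50 after a transcript start) were found for 33 of the 43 named called genes. Those of Cry1, Pfkfb3 and Elovl6 are shown as called members of the clock, glycolysis and lipid synthesis lists, and were chosen after their values were seen. Capitals mark the E-box CACGTG, the letters bound by clock and related factors, and the FoxO-type letters GTAAACA, searched on both strands.
Cry1, chr10:85185005-85185304, minus strand: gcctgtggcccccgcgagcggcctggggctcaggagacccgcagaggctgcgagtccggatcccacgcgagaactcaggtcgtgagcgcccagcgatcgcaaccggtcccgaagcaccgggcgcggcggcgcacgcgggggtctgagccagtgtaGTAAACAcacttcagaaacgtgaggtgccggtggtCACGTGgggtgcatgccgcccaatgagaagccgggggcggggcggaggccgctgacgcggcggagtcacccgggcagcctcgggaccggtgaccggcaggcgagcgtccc
Pfkfb3, chr2:11502041-11502340, minus strand: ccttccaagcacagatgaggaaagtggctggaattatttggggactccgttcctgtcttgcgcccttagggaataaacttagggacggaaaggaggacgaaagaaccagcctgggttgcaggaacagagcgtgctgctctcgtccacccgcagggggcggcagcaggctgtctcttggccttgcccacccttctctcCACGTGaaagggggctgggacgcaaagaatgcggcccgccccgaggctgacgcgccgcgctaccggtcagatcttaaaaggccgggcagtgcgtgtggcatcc
Pfkfb3, chr2:11553880-11554179, minus strand: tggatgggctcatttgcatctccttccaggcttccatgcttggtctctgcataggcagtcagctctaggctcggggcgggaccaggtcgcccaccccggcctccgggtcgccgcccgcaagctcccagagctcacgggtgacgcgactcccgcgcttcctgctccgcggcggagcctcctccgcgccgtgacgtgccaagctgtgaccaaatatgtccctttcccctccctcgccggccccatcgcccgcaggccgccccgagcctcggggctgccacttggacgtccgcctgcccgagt
Elovl6, chr3:129532136-129532435, plus strand: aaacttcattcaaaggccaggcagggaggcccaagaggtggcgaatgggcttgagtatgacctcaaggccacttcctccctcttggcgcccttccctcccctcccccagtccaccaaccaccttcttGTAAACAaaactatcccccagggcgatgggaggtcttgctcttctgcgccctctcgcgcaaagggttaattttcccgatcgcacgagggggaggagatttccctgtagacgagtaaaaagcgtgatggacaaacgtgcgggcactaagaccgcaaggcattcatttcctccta
The E-box stands with its first base 60 bases before the start of Cry1 and 53 bases before the inner start of Pfkfb3, and the outer Pfkfb3 window holds neither motif. The FoxO-type letters stand 95 bases before the start of Cry1 and 123 before that of Elovl6. An E-box was in the windows of 5 of the 33 genes (15.2%: Cry1, Rfesd, Pak1, Pfkfb3 and Fastkd1), against 8.09% of the 27025 genes with a window. The FoxO-type letters were in 3 of the 33 (9.09%: Cry1, Elovl6 and Nos1ap), against 4.05% of all. The letters TTANGTAA and TCACNCCAC, those of a D-box and of a sterol element, were in 0 of the 33, against 2.72% and 1.44% of all genes.

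Among secreted factors, Erfe and Gdf11 were called in opposite directions. Erfe, which codes for the hormone erythroferrone and is also made by muscle under the name myonectin, had 0.325 ± 0.124 CPM at 18 months and 0.860 ± 0.189 CPM at 10 months (SD, n = 9 and 10). The groups did not overlap, the log2 fold change was -1.37 (SE 0.23, adjusted p = 0.00406), and the call held in all 19 fits that left out a library. Of its exon bases, 12.7% lie opposite exons of Ilkap, which stood at -0.08 on the log2 scale (adjusted p = 0.661). Gdf11, a ligand closely related to myostatin, had 7.91, 12.04 and 15.0 CPM at 18 months, against 5.76, 7.105 and 9.08 CPM at 10 months. Its log2 fold change was 0.66 (SE 0.15, adjusted p = 0.0459), and it was called in 5 of the 19 fits. Myostatin itself (Mstn) was at -0.14 (adjusted p = 0.735).

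Gdf11 belongs to a list of 26 tested genes of BMP and TGF beta signalling, in which 1 rose and 1 fell and the median was 0.00. The fall was that of Tmem100, a membrane protein of endothelium that responds to BMP signals, with 10.7 ± 3.33 CPM at 18 months and 19.1 ± 7.05 CPM at 10 months (log2 fold change -0.84, SE 0.20, adjusted p = 0.0482). It was called in 7 of the 19 fits that left out a library. The other 11 endothelial markers were not called, and the list as a whole held 359 to 454 CPM at 18 months and 288 to 430 CPM at 10 months. Acvr2b, the receptor of Gdf11 and myostatin, stood at 0.28 (adjusted p = 0.113), and at 0.32 (adjusted p = 0.0396) without library 3.1. Limma voom with quality weights called 2 of the 26 genes higher and 3 lower, Acvr2b among them.

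Chaperone transcripts gave a single call. Of 27 heat shock proteins and co-chaperones, 1 was called, the J-domain protein Dnajb4, which had 49.6, 56.4 and 64.0 CPM at 18 months, against 61.0, 71.8 and 130 CPM at 10 months. It fell by 0.42 (SE 0.10, adjusted p = 0.0459), and by 0.30 (adjusted p = 0.018) without library 3.1, its highest value. At an unadjusted p under 0.05, 12 of the 27 were lower and 0 higher, against 6.27% and 5.92% of all genes. A lower fitted level was found in 25 of the 27, against 8066 of all 14790 genes. These counts are from the fit with library 3.1. The inducible chaperones Hspa1b and Hspa1a stood at -1.06 (adjusted p = 0.0645) and -0.80 (adjusted p = 0.156), and the near-identity of these 2 genes makes the division of their reads uncertain. The summed level of the list was highest in library 3.1, at 10696 CPM, against 6512 to 7758 CPM in the other 10-month libraries and 6143 to 7218 CPM at 18 months. The list median was -0.18 with library 3.1 and -0.08 without it.

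Ceramide breakdown was represented by Acer2, an alkaline ceramidase of the Golgi. It had 1.48, 2.69 and 7.08 CPM at 18 months, against 1.42, 1.80 and 2.55 CPM at 10 months, and 8 of 9 libraries of 18 months lay above the 10-month median. Its log2 fold change was 0.81 (SE 0.18, adjusted p = 0.0312), but the highest value, in library 6.1, was far above the next at 4.09 CPM, and without 6.1 the gene was at 0.58 and no longer called. None of the other 19 tested sphingolipid genes was called by edgeR or by DESeq2, and the list median was 0.06. The ceramide synthase Cers4 was nearest, at 0.35 (adjusted p = 0.112). Limma voom with quality weights called it higher, together with Acer2 and Sgpl1.

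Jchain, the chain that joins polymeric antibodies in plasma cells, rose by 1.59 on the log2 scale (SE 0.37, adjusted p = 0.0459). It had 1.42, 2.86 and 6.15 CPM at 18 months, against 0.351, 0.707 and 3.71 CPM at 10 months, where library 1.4 held the highest value and the next was 1.21 CPM. All 9 libraries of 18 months lay above the 10-month median, and the call held in 4 of the 19 fits that left out a library, with values from 1.41 to 2.07. The other 7 tested plasma and B cell markers were not called, among them Mzb1 at -0.13 and Cd79a at 0.31. The immunoglobulin constant genes of the list were not matched to the table. The summed markers ran from 60.8 to 81.3 CPM at 18 months and from 52.2 to 93.5 CPM at 10 months, and from 52.2 to 68.0 CPM at 10 months without library 3.1. Jchain was a small part of these sums, which also hold Xbp1 and do not measure plasma cell content.

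Of 28 interferon response genes tested, 0 were called by edgeR. Of the 28, 26 had a higher fitted level at 18 months, against 6724 of all 14790 genes. At an unadjusted p under 0.05, 9 were higher and 0 lower, against 5.92% and 6.27% of all genes. The list median stood at 0.20, against -0.01 over all genes. The median was 0.19 without library 3.1 and 0.24 in gastrocnemius. Irf7, which drives the type I response, had 3.45 ± 0.498 CPM at 18 months and 2.54 ± 0.477 CPM at 10 months (log2 fold change 0.44, adjusted p = 0.112), and DESeq2 called it as the only member. Ifit2 and Zbp1 had log2 fold changes of 0.40 (adjusted p = 0.13) and 0.76 (adjusted p = 0.188). Limma voom with quality weights called Irf7 and Ifit2, both higher. The summed list held 126 to 182 CPM at 18 months and 109 to 155 CPM at 10 months. Macrophage markers, which some of these genes accompany, summed to 109 to 221 CPM at 18 months and 92.8 to 211 CPM at 10 months, and 0 of 13 were called. The share of infiltrating cells in the interferon values was not tested.

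The remaining called rises were spread over signalling, junction and nuclear proteins. Car14, a carbonic anhydrase of the muscle cell surface, rose by 0.45 (SE 0.10, adjusted p = 0.0311). It joined Car5b as the 2 called members of 24 genes of mitochondrial biogenesis and exercise regulation, whose median was 0.01. The kinase Pak1, activated by small GTPases of the Rac family, had 43.7 ± 7.57 CPM at 18 months and 29.6 ± 7.28 CPM at 10 months, and rose by 0.57 (adjusted p = 0.0312). Its lowest 10-month value, 13.8 CPM, came from library 3.1, and it rose by 0.49 without that library. Nab2, which represses the EGR transcription factors, rose by 0.59 (adjusted p = 0.0182), although 42.2% of its exon bases lie opposite other annotated exons. The cytokine receptor kinase Jak3 rose by 0.41 (adjusted p = 0.0312), and Nos1ap, the adaptor of neuronal nitric oxide synthase, by 0.82 (adjusted p = 0.0312).

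The junction protein Pkp2 and the LIM-domain protein Lmo7 rose by 0.45 and 0.27, and the anchoring protein Akap13 and the endoplasmic reticulum lectin Mlec by 0.27 and 0.25 (adjusted p from 0.0396 to 0.0498). Mlec shows how small a called change could be, with 247 ± 18.9 CPM at 18 months and 208 ± 14.4 CPM at 10 months and no overlap of the groups. Tmem8 rose by 0.61, the replication clamp loader subunit Chtf18 by 0.65, Fryl by 0.32 and Wdr6 by 0.36 (adjusted p from 0.0167 to 0.0369). The remaining called falls included Rfesd and Fastkd1, with log2 fold changes of -0.31 and -0.27, and Tsacc at -0.50 (adjusted p from 0.0231 to 0.0459). Rfesd, which has a Rieske iron-sulphur domain, had 8.66, 10.19 and 12.3 CPM at 18 months, against 10.9, 12.5 and 14.0 CPM at 10 months. Fastkd1, of a family that handles mitochondrial RNA, had 12.3, 14.7 and 17.6 CPM at 18 months, against 15.7, 17.4 and 20.3 CPM at 10 months. Both pairs of groups overlapped.

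The contractile and respiratory core of the muscle showed no called change. Of 21 adult fast and slow fibre genes, 0 were called by edgeR or DESeq2 and 0 reached an unadjusted p under 0.05, and their log2 fold changes ran from -0.12 to 0.17. The slow myosin Myh7 averaged 121 ± 32.7 CPM at 18 months and 112 ± 25.0 CPM at 10 months, and the fast isoform Myh1 had 5077 ± 505 and 4858 ± 898 CPM. Myh2, of fast oxidative fibres, had 2063 ± 150 CPM at 18 months and 2144 ± 627 CPM at 10 months. Library 3.1 had 464 CPM of Myh2, against 1979 to 2624 CPM in the other libraries of 10 months. Of 35 nuclear and 13 mitochondrial genes of the respiratory chain, 0 were called by either tool and 0 had an unadjusted p under 0.05, and none of the nuclear genes differed by more than 0.07 on the log2 scale. Ppargc1a, the coactivator of mitochondrial biogenesis, had 32.4 ± 2.40 CPM at 18 months and 33.1 ± 3.16 CPM at 10 months (log2 fold change -0.03, adjusted p = 0.878).

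The summed mitochondrial-genome transcripts ran from 100287 to 228970 CPM at 18 months and from 96343 to 215852 CPM at 10 months, and the highest values were those of libraries 5.2 and 3.2. Of 26 collagen and matrix genes, 0 were called by edgeR or DESeq2. At an unadjusted p under 0.05, 3 were higher and 1 lower, against 5.92% and 6.27% of all genes. Limma voom with quality weights called 2 lower, Col15a1 and Sparc. The list median was 0.03, and -0.06 without library 3.1, whose summed matrix level of 600 CPM lay under every other library (992 to 2108 CPM at 18 months and 1491 to 1815 CPM at 10 months). Bgn, Col11a2 and Tnc had log2 fold changes of 0.33, 0.49 and 0.38.

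Genes of atrophy, denervation and senescence were not called by edgeR in the full comparison. The 22 genes of FoxO, atrophy and glucocorticoid response had a median of -0.18. At an unadjusted p under 0.05, 6 were lower and 0 higher, against 6.27% and 5.92% of all genes. The sign of the median turned with library 3.1, since the median was 0.12 without that library. Trim63, a ubiquitin ligase of muscle protein breakdown, had a log2 fold change of -1.01 with library 3.1 and -0.01 without it, and Eif4ebp1, a brake on translation, -0.92 and -0.03. Tsc22d3, a glucocorticoid target, was at -0.36 (adjusted p = 0.108) and -0.34, and was the only member that DESeq2 called. Klf15, another glucocorticoid target, was at 0.14 (adjusted p = 0.804) with library 3.1, and was called at 0.46 (adjusted p = 0.018) without it. Limma voom with quality weights called 3 of the 22 higher and 1 lower (Klf15, Per1, Cdkn1a and Tsc22d3).

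Among 21 denervation and neuromuscular junction genes, Sln, the sarcolipin that inhibits the calcium pump, came nearest to a call. It had 5.70 ± 2.46 CPM at 18 months and 3.15 ± 0.770 CPM at 10 months, a log2 difference of 0.87 (adjusted p = 0.0628), and it was called at 0.88 (adjusted p = 0.0498) without library 3.1 and by DESeq2. Lrp4, a receptor of the nerve contact, was at 0.41 (adjusted p = 0.179), and Myod1, which marks myogenic activation, at -0.28 (adjusted p = 0.378). Limma voom with quality weights called Lrp4, Sln and Runx1 higher. Library 3.1 had the lowest 10-month Lrp4, at 3.75 CPM against 9.03 CPM in the next. The acetylcholine receptor subunits Chrna1, Chrnd, Chrne and Chrng were at 0.12, -0.01, 0.18 and 0.83 without a call. Cdkn2a, the senescence-linked inhibitor of the cell cycle, had 0.571 ± 0.326 CPM at 18 months and 0.224 ± 0.155 CPM at 10 months (1.38, adjusted p = 0.118), with 7 of 9 libraries of 18 months above the 10-month median. Phlda3, a p53 target, was at -0.62 (adjusted p = 0.0692), and Cdkn1a at -0.02. Library 3.1 had the highest 10-month Phlda3, at 441 CPM against 260 CPM in the next, and without it 0 genes of this list were called. Of the 16 senescence and p53 genes tested, DESeq2 called Phlda3 alone. Limma voom with quality weights called 3 higher and 1 lower (Phlda3, Trp53inp1, Cdkn2a and Cdkn1a).

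Fatty acid uptake and oxidation had 23 genes with a median of -0.10, and 0 were called by edgeR or DESeq2. At an unadjusted p under 0.05, 1 was higher and 3 lower, against 5.92% and 6.27% of all genes. Limma voom with quality weights called Slc27a1 and Angptl4 higher. Cpt2, the inner carnitine transferase, was at -0.22 (adjusted p = 0.254), and library 3.1 was its highest at 10 months (120 CPM, next 89.0 CPM). Acot1 was at -1.34 with library 3.1 and 0.27 without it, and Angptl4, an inhibitor of lipoprotein lipase, at 0.79 and 1.104. Immediate early genes had a median of -0.11 over 23 genes and 0 calls by edgeR. At an unadjusted p under 0.05, 1 was higher and 1 lower, against 5.92% and 6.27% of all genes. These 2 were Arc, at 0.97 (adjusted p = 0.118), and Jun, at -0.41 (adjusted p = 0.0864), and DESeq2 called both. In gastrocnemius Arc was called, at 1.21 (adjusted p = 0.0275).

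**Figure D3:**
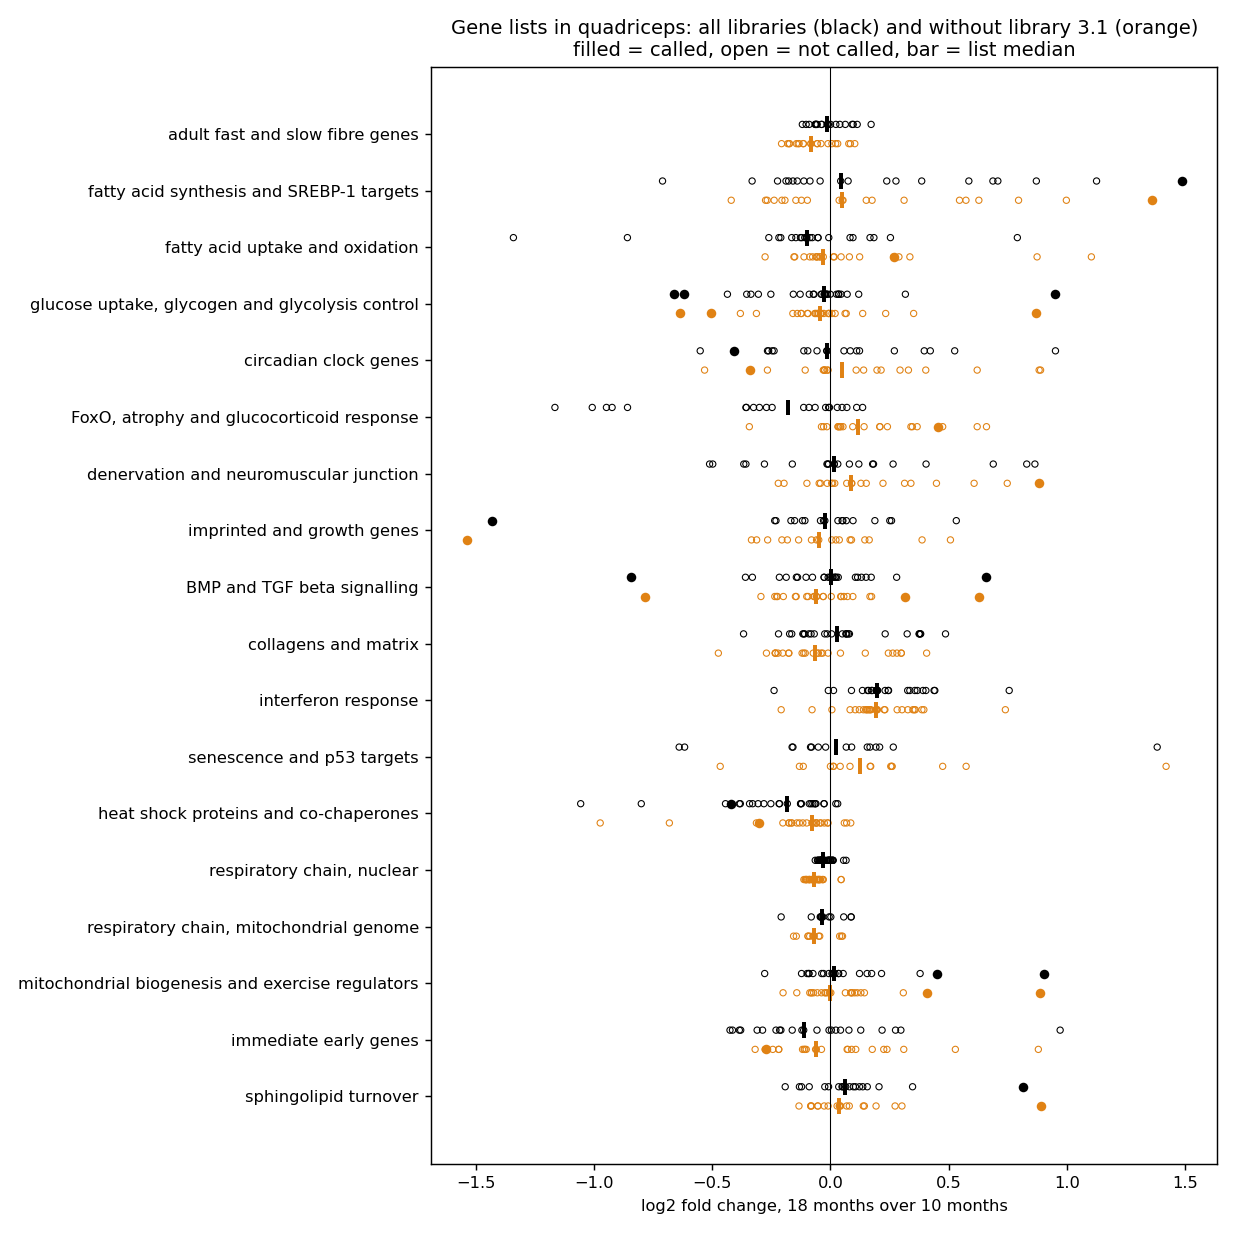
Log2 fold changes of 18 months over 10 months (x axis) for each tested member of 18 gene lists, with all quadriceps libraries in black and without library 3.1 in orange. Filled points are called genes and bars are list medians. Interferon medians stay near 0.20 and 0.19, while that of the FoxO, atrophy and glucocorticoid list stands at -0.18 and 0.12.

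Markers of the other cells that a muscle sample can hold varied between libraries, and the ranges of both ages overlapped. The red cell markers ran from 162 to 1133 CPM at 18 months and from 70.6 to 640 CPM at 10 months. Without a call, 7 of 7 tested members had a higher fitted level at 18 months, against 6724 of all 14790 genes. Fibroblast markers ran from 486 to 830 CPM at 18 months and from 234 to 831 CPM at 10 months, and tendon markers from 140 to 318 CPM at 18 months and from 87.2 to 262 CPM at 10 months. Smooth muscle and pericyte markers held 394 to 483 CPM at 18 months and 235 to 467 CPM at 10 months, Schwann and nerve markers 86.7 to 113 and 66.8 to 103 CPM, and satellite cell markers 2892 to 6135 and 3318 to 5812 CPM. The satellite cell list includes Des, and its sum, like that of the fibre markers, was highest at 18 months in library 5.2. Each sum is weighted to its most abundant members, so it does not measure the number of cells of the named type. T and NK cell markers stayed between 1.01 and 2.29 CPM at 18 months and between 0.632 and 1.83 CPM at 10 months. Their means were 1.68 ± 0.425 and 1.14 ± 0.343 CPM (SD, n = 9 and 10), and only 1 member passed the filter, without a call.

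Neutrophil markers were close to 0 in most libraries. They summed to 0.902 to 15.8 CPM at 18 months and 0.273 to 26.8 CPM at 10 months, the last in library 3.1, with a next highest of 1.502 CPM at that age, and Elane and Ly6g were at 0 in most of the 19 libraries. The calprotectin genes S100a8 and S100a9 turned on this library. They had log2 fold changes of -0.06 and 0.12 with it (adjusted p = 0.981 and 0.954) and were called at 2.15 and 2.102 (adjusted p = 0.0222 and 0.0156) without it. S100a9 then stood at 0.305 to 4.56 CPM at 18 months, with a median of 1.23 CPM, and the highest value was in library 5.2.

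Without library 3.1, 113 of 14771 genes were called (0.765%), 75 higher and 38 lower at 18 months. They included 51 of the 52 called with it, Tsacc being lost, and 62 others. Named additions, chosen for their known roles after their values were seen, were the hormone-sensitive lipase Lipe at 0.46 (adjusted p = 0.0396), the triglyceride synthase Dgat1 at 0.28 (adjusted p = 0.018), the fatty acid transporter Slc27a1 at 0.27 (adjusted p = 0.0448) and the lipase inhibitor G0s2 at -0.87 (adjusted p = 0.0363). Myhas, an antisense transcript of the fast myosin cluster, was at -0.42 (adjusted p = 0.0141), Ret, a receptor for neurotrophic factors, at -0.69 (adjusted p = 0.0252), and Jun at -0.27 (adjusted p = 0.0396).

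The number of calls depended on single libraries in both groups. Leaving out 1 library at a time gave from 18 to 113 called genes. Omitting library 5.2 raised the count to 109, whereas it dropped to 18 without 6.1, 20 without 9.3, 26 without 4.3, 28 without 2.2 and 29 without 8.2. Omitting 1.1, 1.2, 1.4, 2.1, 3.3 or 9.2 gave 31 to 34. Of the 43 named genes, 13 were called in all 19 fits, namely the 9 leading rises above together with Erfe, Nnat, Lep and Tbc1d1. With only both sedentary groups fitted, Ric3, Lep and Tbc1d1 were no longer called, and Lep was also lost in limma voom with the first part of the title number as a random block. The other 10 were called in every alternative in which they were tested. Of these, Sugct and Erfe were too low to be tested under the filter of at least 1 CPM in 9 libraries. Of the 43, 13 were called with only both sedentary groups and 15 with the random block. Of the 43, 0 changed sign in any fit.

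**Figure D4:**
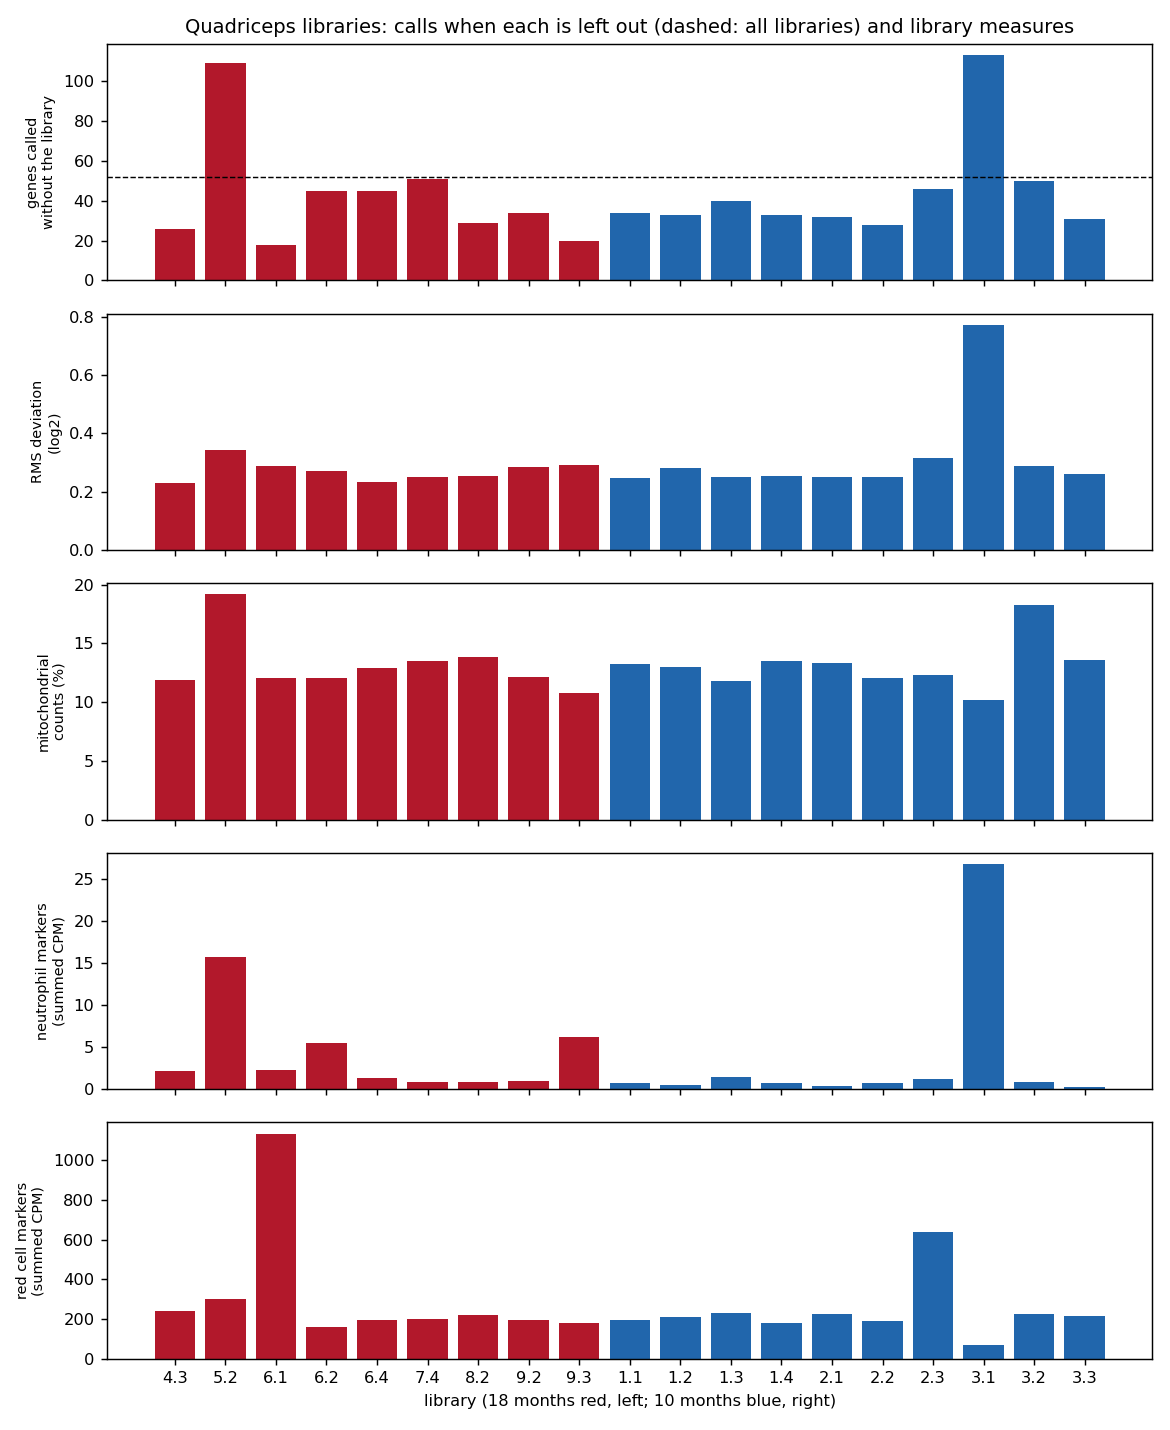
For each quadriceps library, 18 months in red on the left and 10 months in blue on the right, bars give the number of called genes when it is left out (dashed line, 52 with all libraries), its root mean square deviation, its mitochondrial share of counts, and its summed neutrophil and red cell markers. Library 3.1 stands apart in deviation (0.772) and neutrophil markers (26.8 CPM), and the count of calls is highest without 3.1 or 5.2 and lowest without 6.1.

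The gastrocnemius, a calf muscle, was measured in 10 sedentary libraries at 18 months and 10 at 10 months, and its ageing comparison called 23 of 15027 genes (0.153%). Of the quadriceps calls, 10 were also called there in the same direction, which is 19.2% of the quadriceps and 43.5% of the gastrocnemius calls. They included Sh2d4a, Amy1, Mpzl3, Acer2, Pfkfb3 and Mlec, which rose, and Erfe and Nnat, which fell, together with 1 predicted gene. On the log2 scale in gastrocnemius, Nnat changed by -1.49 (SE 0.29, adjusted p = 0.0233) and Sh2d4a by 0.72 (SE 0.11, adjusted p = 0.00136). Of the 49 quadriceps calls tested in gastrocnemius, 48 had the same sign and 40 an unadjusted p under 0.05 with the same sign. Title numbers are shared between the muscles, so both sets of libraries may come from the same mice.

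Elovl6 was the exception in sign, with a log2 difference of -0.18 (SE 0.45, adjusted p = 0.929) in gastrocnemius. Ces1f and Car5b were near 0 there, at 0.06 and 0.08, as were Acaca and Slc25a1 at 0.02 and 0.01, and the adipocyte list had a median of -0.23 in gastrocnemius against 0.49 in quadriceps. Tested as a difference between the muscles, the ageing effect called 0 of 15433 genes (0%), with 232 at an unadjusted p under 0.05 in edgeR, and no other tool was run on this difference. The unadjusted p of the difference was 0.00489 for Elovl6, 0.00995 for Car5b and 0.00152 for Hspa1b, all with an adjusted p of 1.0. The adipocyte markers Cidec, Adipoq and Cfd were also among the genes of smallest p in this test, at an unadjusted 0.00711, 0.0077 and 0.00773. Their differences were positive, like those of Elovl6 and Car5b, while the adipocyte marker Lep stood at 0.30 (unadjusted p = 0.545). The part of fat cell content in these differences was not tested. Hspa1b itself stood at 1.23 on the log2 scale (SE 0.58, adjusted p = 0.4933) in gastrocnemius. The lipid and chaperone values are thus not shown to differ between the muscles.

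**Figure D5:**
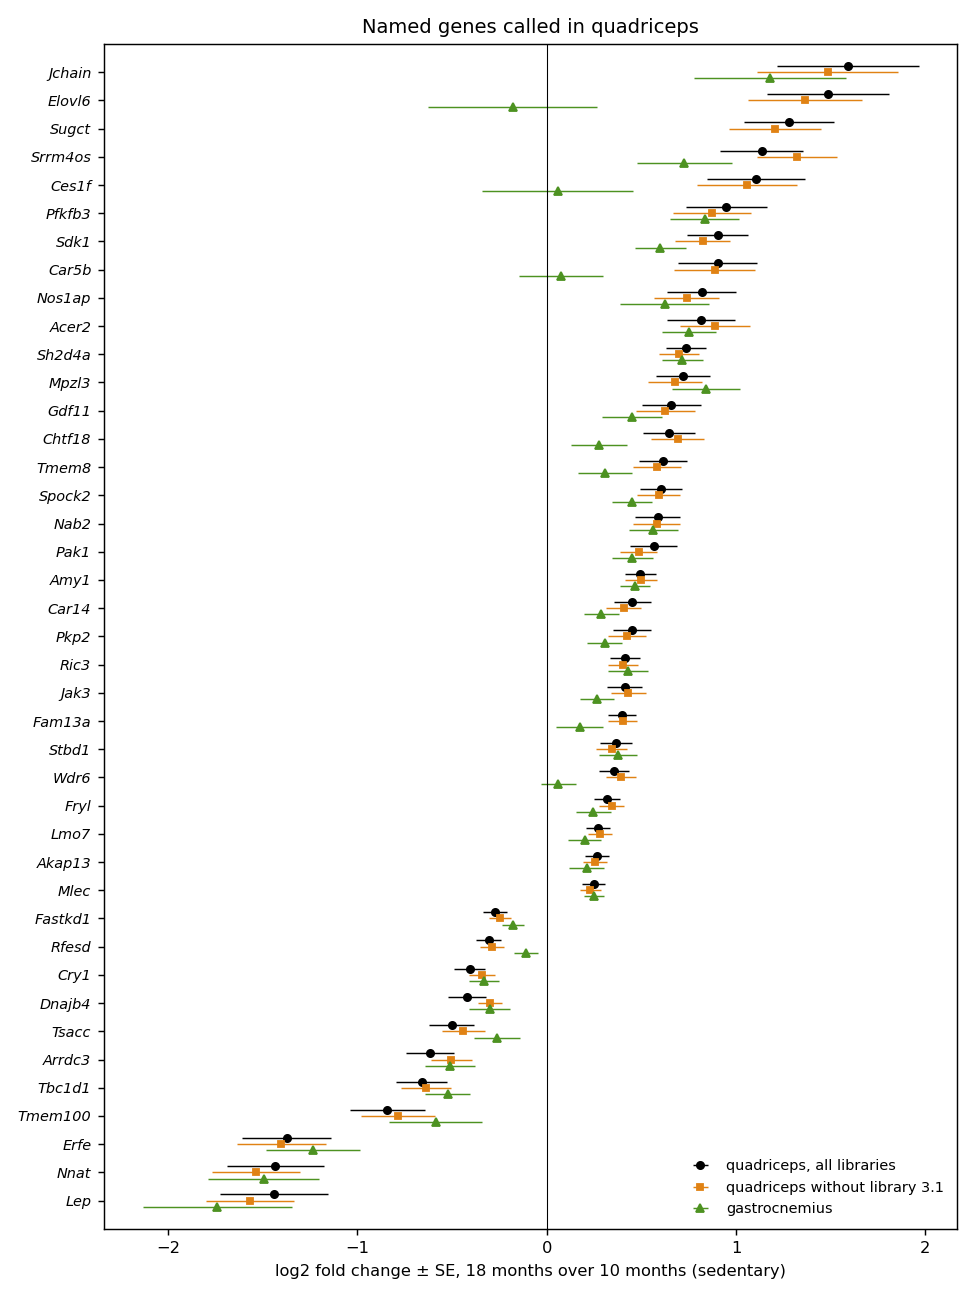
Log2 fold changes with standard errors, 18 months over 10 months in sedentary mice, for 41 named genes called in quadriceps: quadriceps with all libraries (black), quadriceps without library 3.1 (orange) and gastrocnemius (green, not tested there for Sugct). Orange and black values lie close together throughout, and the green values of Elovl6 (-0.18), Ces1f (0.06), Car5b (0.08) and Wdr6 (0.06) lie near 0 or below.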

How the data were processed

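Polyadenylated RNA of perfused male mice was sequenced with a TruSeq kit, per the labels' protocols. The authors deposited whole-number read counts per gene, which were used as they stand. STAR 2.5.2b and the genome build GRCm38.p5 are named in the submitters' processing notes, and the counting program, with its use of strand, is not given in the sources used here. Deposited FPKM and TPM tables were not used.

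Counts of 31 quadriceps libraries (9 sedentary at 18 months, 10 sedentary at 10 months, 12 exercised) were fitted together in edgeR 4.0.16 (R 4.3.3) with TMM scaling, filterByExpr (minimum count 10, minimum total 15) and the quasi-likelihood F test, Benjamini-Hochberg adjusted over all genes tested with a threshold of 0.05. The contrast was sedentary 18 months minus sedentary 10 months, and the SE is the log2 fold change divided by the root of F. Fits without library 3.1, with only both sedentary groups, DESeq2 1.42.0 and limma 3.58.1, other scaling, other filters and 1 library left out at a time were alternatives. The script was tested on simulated data. No pair of libraries was identical or within sampling noise.

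Every called gene with a given symbol is named, except 2 that are not reported here. Low, median and high values are given for the 8 rises and 8 falls of smallest p with a mean of at least 1 CPM, and values for called members of each gene list and up to 3 of smallest p. Genes named outside this rule were chosen after their values were seen. The members and lists were chosen with earlier results of these data known. From the marker lists, 8 symbols were not matched to the table. Gene positions come from GENCODE M21 (GRCm38).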

Additional observations from a re-analysis of the deposited data

Results flagged for a closer look

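In 56 of 212 groups of values examined, the highest or lowest library lay far from the nearest other by Dixon's 95% criterion. Chance gives this in about 1 in 20 groups. Of the 56, 30 were library 3.1, 7 were 5.2, 6 were 9.3 and 5 were 2.3. No explanation was tested.

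At 10 months, library 3.1 was highest for Acot1 (16.1 CPM), Aen (37.5), Angptl4 (8.80), Cpt2 (120), Cry1 (27.3), Dnajb4 (130), Eif4ebp1 (322), Ier3 (16.8), Jun (145), Phlda3 (441) and Trim63 (2155 CPM). It was lowest for Bgn (20.02 CPM), Car14 (10.7), Ifit2 (1.41), Lrp4 (3.75), Mb (871), Myh2 (464), Myh4 (39745), Myl1 (4050), Mylpf (4158), Ndufa1 (57.5), Ndufb3 (53.9) and Sdha (851 CPM). Its summed plasma and B cell (93.5 CPM) and neutrophil markers (26.8 CPM) were highest. Its endothelial (288), fibroblast (234), smooth muscle and pericyte (235) and Schwann and nerve markers (66.8 CPM) were lowest, and its root mean square deviation was 0.772.

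At 18 months, library 5.2 was highest for the mitochondrial genes COX2 (74.8 CPM) and ND4L (7.89 CPM), for Mylpf (11919 CPM), for summed skeletal fibre (168530 CPM), neutrophil (15.8 CPM) and satellite cell markers (6135 CPM) and for the mitochondrial share (19.2%). Library 9.3 was highest for Acvr2b (42.4 CPM), Col11a2 (9.52), Lmo7 (115), Sdk1 (4.91) and Srrm4os (6.91) and lowest for Cpt2 (61.8 CPM). Library 6.1 was highest for Acer2 (7.08 CPM) and red cell markers (1133 CPM). Library 6.2 was lowest for fibroblast markers (486 CPM), and 7.4 for Ndufb3 (57.2 CPM).

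At 10 months, library 2.3 was highest for Dbp (31.1 CPM), Hspa1b (12.3), Stbd1 (74.4) and red cell markers (640 CPM) and lowest for Wdr6 (6.12 CPM). Library 1.2 was highest for Akap13 (74.3 CPM), 1.4 for Jchain (3.71), 2.2 for Cdkn2a (0.591 CPM) and 3.2 for the mitochondrial share (18.2%).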

How the results depend on the processing

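With 52 genes called by all libraries, the count was 113 without library 3.1, 17 with only both sedentary groups fitted, 122 with DESeq2, 833 with limma voom quality weights and 19 with limma voom and the first part of the title number as a random block. It was 49 with RLE factors, 42 with no filter and 42 with at least 1 CPM in 9 libraries. Of 2 alternatives chosen after seeing the data, leaving out 3.1, 3.2 and 5.2 gave 179 and leaving out 3.1 and 6.1 gave 50, of which 26 were among the 52. Leaving out 1 library at a time gave 18 to 113 called genes, with 109 without 5.2, 34 without 1.1 or 9.2, 33 without 1.2 or 1.4, 32 without 2.1, 31 without 3.3, 29 without 8.2, 28 without 2.2, 26 without 4.3 and 20 without 9.3. The causes were not tested.

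S100a8, at -0.06 with all libraries, turned to 2.15 without library 3.1, to 1.63 with limma quality weights, to 1.77 without 3.1, 3.2 and 5.2 and to 2.18 without 3.1 and 6.1. Genes called in both muscles numbered 10, and 19 without library 3.1 in both muscles. For the difference between muscles, a fit with the title number as a replicate block called 0 genes, with 479 at an unadjusted p under 0.05. Same-numbered libraries of the 2 muscles correlated from -0.20 to 0.88 over 31 pairs, with 28 over 0.1, and 20 quadriceps libraries correlated best with their own number. Shared mice, a shared cage or shared handling cannot be told apart here, and none was tested. The labels do not state that a number marks a mouse and 3 pairs were not over 0.1, so the numbers were not taken as pairing. The values between muscles come from the fit without the block. Within the quadriceps no paired analysis was possible because the 2 ages share no title number.

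Each group holds 9 or 10 libraries of 29.1 to 44.5 M counts. Counting error therefore adds to the spread of genes of a few CPM, and most to genes under 1 CPM such as Erfe, Sugct, Chtf18 and Nos1ap.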
